A study of Mus musculus with 4 samples.

Results

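The thrombospondin and TGF-beta axis genes described here are the thrombospondins Thbs1 and Thbs2, the matrix gene Tgfbi, the ligand genes Tgfb1, Tgfb2 and Inhba, the receptor genes Tgfbr1 and Tgfbr2, and the inhibitory Smad gene Smad7. They are 9 of 22180 genes measured on MoGene 2.0 whole-transcript arrays, taken by name from array rows annotated with exactly 1 gene symbol, and each of the 9 has a single such row. RNA came from primary keratinocytes of 1-week-old C57BL/6J mice, grown on collagen in a keratinocyte medium with 0.05 mM calcium chloride and 5 ng/ml EGF. For both genotypes the medium also held 0.5 µg/ml insulin, 0.05 µg/ml hydrocortisone and 7.5 µg/ml bovine pituitary extract. WT cells carried floxed Glut1 alleles without Cre. Glut1-deficient cells came from Glut1 fl/fl mice with K14 Cre, in which Cre is driven by the keratin 14 promoter of basal keratinocytes. Each genotype had 4 mice. After 3 days cells were reseeded at equal number. They were harvested on the following day, with the cells of 2 plates combined into each sample, and each genotype has 2 such arrays. Lysates held 1500000 WT or 1000000 Glut1-deficient cells. The 9 genes were chosen by name with the measured Glut1-deficient minus WT differences of these arrays known, in which Thbs1 and Tgfbi already stood among the largest falls. Their differences are therefore a description, and the p-values beside them are no independent support.

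Transforming growth factor beta is secreted in a latent form, bound to its own propeptide and to latency binding proteins in the matrix. It is released by integrins, by proteases or by thrombospondin-1, and then joins a type II and a type I receptor kinase. Of these, the type I kinase phosphorylates Smad2 and Smad3. In keratinocytes the pathway is known for arresting proliferation and for inducing matrix and migration genes, and Smad7 is one of its induced inhibitors.

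Values are log2 intensities, differences are Glut1-deficient minus WT on the log2 scale, and a gene is said to have risen or fallen only where it passed limma's test with a Benjamini-Hochberg adjusted p under 0.05 over all 22180 genes. The deleted gene Slc2a1, which encodes Glut1, read 11.13 and 11.05 on the WT arrays and 11.01 and 11.01 on the Glut1-deficient arrays in its brighter row. Its dimmer row read 5.18 and 5.09 against 4.80 and 4.44. Where these probes lie relative to the floxed exons is not stated in the labels, so these rows do not check the labels. Array medians lay between 4.07 and 4.11. Correlations over genes were 0.9962 within the WT pair and 0.9951 within the Glut1-deficient pair. Intensities have no read depth, and precision is limited by the number of arrays. Nothing in the labels says which mice or days the pools of a genotype share, and p-values cover only the spread between the pools hybridised, which may be partly technical. The arrays measure mixed RNA, in which fewer cells of a type and less RNA per cell cannot be told apart.

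The 3 matricellular genes showed the widest separation of the 9, with Thbs1 and Tgfbi lower and Thbs2 higher on the Glut1-deficient arrays. Thbs1, which encodes the secreted trimeric glycoprotein thrombospondin-1, an activator of latent TGF-beta, read 12.07 and 12.01 on the WT arrays and 9.85 and 10.59 on the Glut1-deficient arrays. Both Glut1-deficient arrays lay below both WT arrays, and the Glut1-deficient pair was spread more widely (SD 0.525 against 0.043, n = 2 each). Thbs1 fell by 1.82 on the log2 scale (SE 0.251, 95% interval -2.47 to -1.18, limma adjusted p = 0.0401). Tgfbi, which encodes a secreted integrin-binding protein of FAS1 domains first found as a transcript induced by TGF-beta, read 8.89 and 8.64 against 6.59 and 7.27. Again the groups did not overlap, and replicate 1 was the lower of the Glut1-deficient arrays for both genes. Tgfbi fell by 1.83 (SE 0.245, 95% interval -2.47 to -1.20, limma adjusted p = 0.0390), which is close to the size of the Thbs1 difference. By size of fall they ranked 14 (Tgfbi) and 15 (Thbs1) among all genes.

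Thbs2, which encodes a related thrombospondin without the peptide through which thrombospondin-1 activates latent TGF-beta, read 5.39 and 5.13 on the WT arrays and 7.73 and 6.37 on the Glut1-deficient arrays. Both Glut1-deficient arrays lay above both WT arrays, but they differed from each other by more than any other of the 9 genes (SD 0.958, n = 2). The log2 difference was 1.79 (SE 0.446, 95% interval 0.64 to 2.94) and did not pass (limma adjusted p = 0.109). Without Glut1-deficient replicate 1 it was 1.11, and without Glut1-deficient replicate 2 it was 2.46. In a fit that lets the variance follow the intensity, Thbs2 passed (limma adjusted p = 0.0261). Thbs2 is also a gene of dermal fibroblasts. Of 14 fibroblast markers, 12 had positive and 2 negative differences, and 1 rose, beside 1.79% of all genes that rose. On WT arrays the summed linear intensity of these 14 markers was 662 and 650, and on Glut1-deficient arrays 1524 and 985. The part of such cells in the Thbs2 values was not tested. Fibroblasts also express Thbs1 and Tgfbi, which were lower on the same arrays, and the part of such cells in those values was not tested either.

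**Figure D1:**
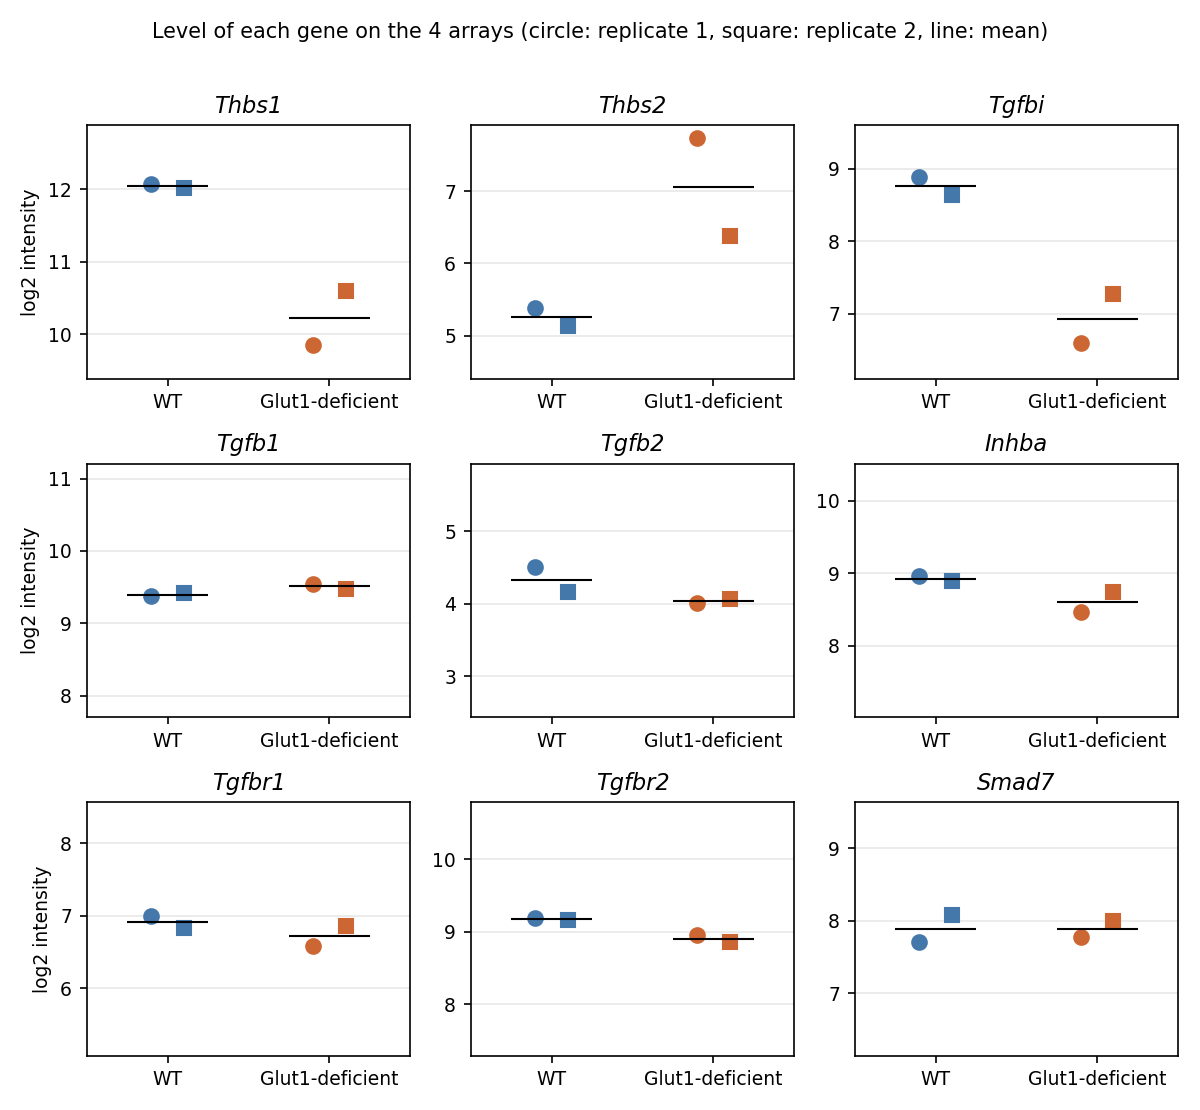
Log2 intensity of each of the 9 genes (vertical axis, 3.5 log2 units high in every panel) on the WT (blue) and Glut1-deficient (orange) arrays, with circles for replicate 1, squares for replicate 2 and a line at the mean of 2 arrays. Thbs1 and Tgfbi drop on both Glut1-deficient arrays, Thbs2 is higher on both but at 7.73 and 6.37, and the differences of the other 6 genes lie between -0.32 and 0.11.

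Promoter sequences are shown for Tgfbi and Thbs2, the genes with the largest fall and the largest positive difference among the 9 for which the RefSeq promoter table (GRCm38.p6) holds an entry. The table matched 7 of the 9 genes, leaving Thbs1 and Smad7 named only. Each sequence is the 250 bases before the annotated start, 5′ to 3′ on the gene's strand, with capitals marking the core Smad box CAGAC or its reverse complement GTCTG. The Tgfbi window is chr13:56609336-56609585 on the plus strand and the Thbs2 window is chr17:14694263-14694512 on the minus strand.
Tgfbi: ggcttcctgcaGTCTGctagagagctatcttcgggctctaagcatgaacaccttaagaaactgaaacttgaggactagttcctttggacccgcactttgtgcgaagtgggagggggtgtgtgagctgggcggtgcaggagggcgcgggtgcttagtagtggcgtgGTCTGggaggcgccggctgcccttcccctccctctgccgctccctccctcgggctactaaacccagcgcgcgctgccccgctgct
Thbs2: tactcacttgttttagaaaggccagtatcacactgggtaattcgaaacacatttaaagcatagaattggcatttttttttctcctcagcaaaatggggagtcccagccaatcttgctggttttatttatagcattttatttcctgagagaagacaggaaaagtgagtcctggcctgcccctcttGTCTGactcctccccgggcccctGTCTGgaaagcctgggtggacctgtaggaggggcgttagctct
Both windows held 2 Smad boxes, which began 239 and 85 bases before the start in Tgfbi and 66 and 43 bases before it in Thbs2. This short motif was present in 42.2% of all 32851 promoter windows of that length, searched on both strands. The Tgfbi window also held 3 matches to the GC-rich Smad element GGCGC or its reverse complement GCGCC. Overlapping matches on the 2 strands of the stretch GGCGCC were counted separately. The window had a GC content of 62.4% and held 1 GC box GGGCGG. The GC-rich element and the GC box were found in 32% and 32.7% of windows. The Thbs2 window held neither of these, had 1 TATAAA or TTTATA match (in 12.4% of windows) and a GC content of 46.8%. Neither held the AP-1 site TGANTCA, the E-box CACGTG or the TEAD motif GGAATG on either strand, which occurred in 6.75%, 6.02% and 12.6% of windows. Overlaps between motifs were counted for each motif separately. Among the other matched genes, the windows of Tgfb2 held 2 Smad boxes and of Tgfbr2 1, those of Tgfb1 and Inhba 0, and of the 2 starts of Tgfbr1 the second held 1. These matches describe the letters and are not shown to be bound.

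None of the 3 ligand genes among the 9 passed. The isoform gene Tgfb3, which is not among the 9, fell and is given below with the genes of latency and release. Tgfb1, the TGF-beta isoform most studied in epidermis, read 9.38 and 9.41 on the WT arrays and 9.54 and 9.48 on the Glut1-deficient arrays, a log2 difference of 0.11 (SE 0.086, 95% interval -0.11 to 0.34, limma adjusted p = 0.503). Its groups did not overlap, by a margin of little more than the spread within them. Tgfb2, which encodes the second isoform, read 4.50 and 4.15 against 4.01 and 4.06, with a difference of -0.29 (95% interval -0.65 to 0.06, limma adjusted p = 0.301). The lower WT array lay close to the Glut1-deficient pair, and all 4 values lay below 4.76, the median level of all genes. Inhba encodes the beta A subunit, which forms activin A as a homodimer and signals through the same Smads. It read 8.96 and 8.89 against 8.46 and 8.74, and its difference of -0.32 (95% interval -0.64 to -0.01) did not pass (limma adjusted p = 0.219). For all 3 genes the intervals leave out differences as large as those of Thbs1, Tgfbi or Thbs2. For Tgfb2 the low level may limit how large a fall could be read.

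Neither the receptors nor Smad7 passed. Tgfbr2, the type II receptor kinase that binds the ligand, read 9.19 and 9.16 on the WT arrays and 8.95 and 8.86 on the Glut1-deficient arrays. These groups were tight and did not overlap, and the difference of -0.27 (SE 0.089, 95% interval -0.50 to -0.04) had a limma adjusted p of 0.176. It passed when the variance followed the intensity (limma adjusted p = 0.0335). Tgfbr1, the type I kinase that phosphorylates Smad2 and Smad3, read 6.99 and 6.84 against 6.59 and 6.86, so that its groups overlapped, with a difference of -0.19 (95% interval -0.52 to 0.14, limma adjusted p = 0.457). Smad7 read 7.70 and 8.08 against 7.77 and 7.998. Its groups overlapped fully, and the difference of -0.01 (95% interval -0.43 to 0.41, limma adjusted p = 0.991) was smaller than the gap between replicates of either genotype. Its sign turned with median centring and with cyclic loess.

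In all, 2 of the 9 genes fell, 0 rose and 7 did not pass, beside 2.84% of all genes that passed in either direction (1.05% fell). On 7 of the 9 the groups did not overlap, as for 53.2% of all genes, and 5 of the 9 had an unadjusted p under 0.05, as had 22.2% of all genes. Since Thbs1 and Tgfbi were known to be lower when the names were proposed, nothing is read from these counts. The median log2 difference was -0.27 over the 9 genes and -0.23 over the 6 ligand, receptor and Smad genes, against -0.01 over all genes. Both calls come from the fit to all 4 arrays. Fits with 1 array left out have 1 residual degree of freedom, so only their differences are given here. In them Thbs1 stayed between -2.19 and -1.45 and Tgfbi between -2.18 and -1.49. With all 41345 array rows tested separately, 0 rows passed in limma. The adjusted p was then 0.128 for Thbs1 and 0.126 for Tgfbi.

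**Figure D2:**
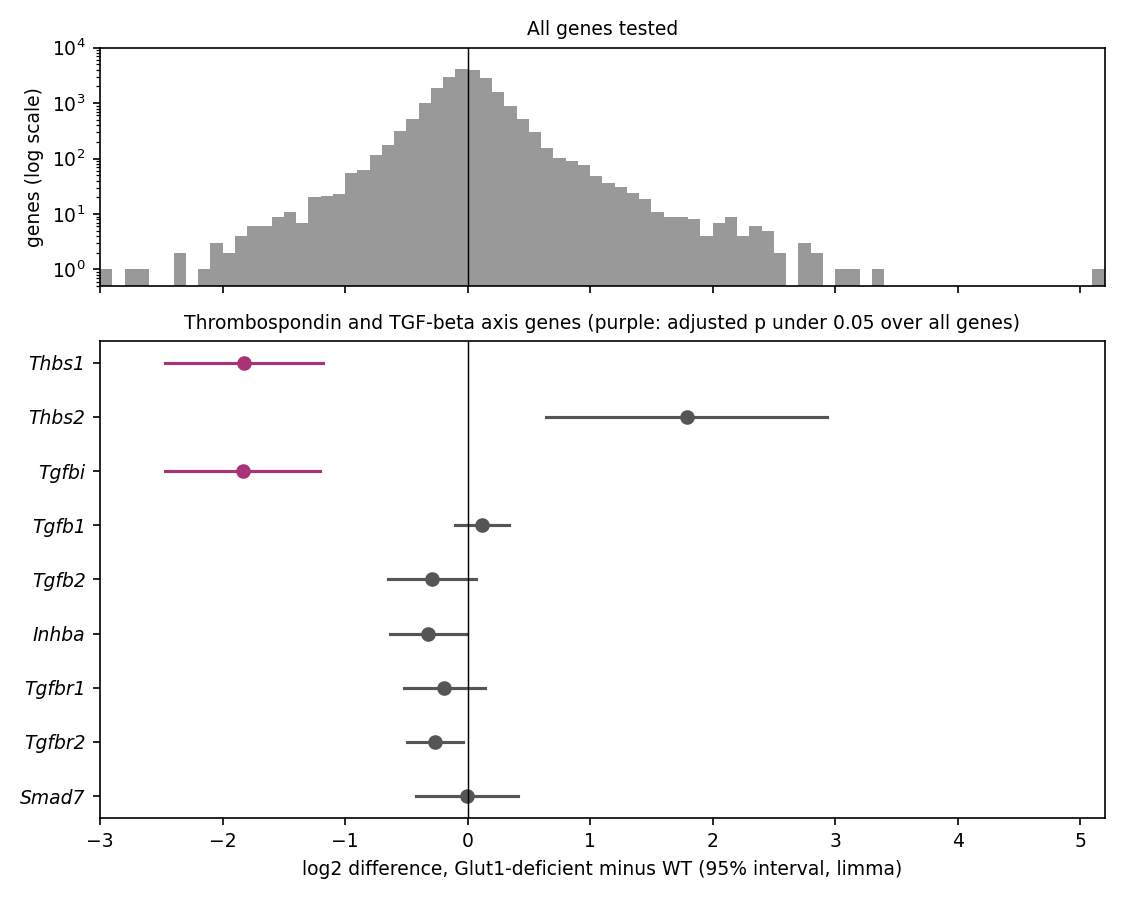
The upper panel counts all 22180 genes by log2 difference, Glut1-deficient minus WT, on a log count axis, and the lower panel gives the log2 difference of each of the 9 genes (point) with its limma 95% interval (line), purple where the adjusted p was under 0.05. Thbs1 (-1.82) and Tgfbi (-1.83) lie in the lower tail and Thbs2 (1.79) in the upper one with a wide interval, and the other 6 genes lie between -0.32 and 0.11.

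The 2 Glut1-deficient arrays did not depart from the WT mean by the same amount. For Thbs1 replicate 1 departed from the WT mean by -2.19 on the log2 scale and replicate 2 by -1.45. For Tgfbi these departures were -2.18 and -1.49, for Thbs2 2.46 and 1.11, and for Inhba -0.46 and -0.18. Replicate 1 was the farther array for 8 of the 9 genes, Tgfbr2 being the exception (-0.22 and -0.32). The same held for 75.6% of the 630 genes that passed and for 57.1% of all genes, so the unequal departure extends beyond these 9.

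Thbs1 and Tgfbi followed each other closely over the 4 arrays. With each gene centred on its own mean, the Euclidean distance between them was 0.139 log2 units, and Tgfbi was the nearest of all named genes to Thbs1. The next nearest to Thbs1 were Nuak1 (0.142), an AMPK-related kinase gene, and Apol9b (0.202), an apolipoprotein L family gene. Nearest to Tgfbi was Nuak1 (0.031), at 8.71 and 8.46 on the WT arrays and 6.37 and 7.09 on the Glut1-deficient arrays, followed by Thbs1 and the atypical cadherin gene Fat2 (0.233). All of these genes fell, and with 4 arrays such likeness is a description of 4 values per gene. The distance was not scaled, so genes with falls of similar size lie near each other by construction. Thbs1 and Tgfbi were also chosen with their falls known, so nothing further is read from their closeness.

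Other genes of the pathway were listed by role, 115 in all, of which 111 were tested. Of these, 3 rose, 7 fell and 101 did not pass, so that 9.01% passed, beside 2.84% of all genes (1.79% rose and 1.05% fell). The median log2 difference was -0.01, as over all genes. Groups did not overlap for 75 of the 111 (67.6%), beside 53.2% of all genes. The lists were drawn up with results of these arrays known, and nothing particular to them is read from these shares. The count that passed in limma was 47 when the variance followed the intensity (20 rose, 27 fell), where 12.0% of all genes passed.

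Among relatives and receptors of the thrombospondins and of Tgfbi, 1 of 8 genes fell, 0 rose and 7 did not pass. Of all genes, 1.05% fell and 1.79% rose. Stab1, which encodes the scavenger receptor stabilin-1 and shares FAS1 domains with Tgfbi, read 6.52 and 6.35 against 5.33 and 5.53, and fell by 1.01 (SE 0.117, limma adjusted p = 0.0302). Postn, which encodes periostin, the closest relative of Tgfbi, read 5.74 and 5.32 against 6.68 and 6.10, a difference of 0.86 in the other direction that did not pass (limma adjusted p = 0.135). Cd47, a cell-surface receptor for thrombospondin-1, was at 0.40 (SE 0.100, limma adjusted p = 0.111). The remaining thrombospondin genes Thbs3, Thbs4 and Comp had differences between -0.03 and 0.02, and Cd36, the other thrombospondin-1 receptor listed, one of -0.01, all at log2 values below 4.76, the median level of all genes.

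Genes that keep TGF-beta latent or release it included 4 of 19 that fell, 1 that rose and 14 that did not pass, with a list median of -0.15. Over all genes 1.05% fell and 1.79% rose. Mmp14, a membrane-anchored metalloproteinase, read 10.69 and 10.79 on the WT arrays and 9.77 and 9.87 on the Glut1-deficient arrays, a fall of 0.92 on the log2 scale (SE 0.094, limma adjusted p = 0.0249). Bmp1, a protease that processes procollagens and latency binding proteins, fell by 0.71 (limma adjusted p = 0.0340). Itgb8, the integrin subunit that pairs with alpha v to release active TGF-beta, fell by 0.69 (limma adjusted p = 0.0348), from 4.78 and 4.83 to 4.08 and 4.15. Its WT values lay close to 4.76, the median level of all genes, and its Glut1-deficient values below it. Tgfb3, the third ligand isoform, read 6.29 and 6.13 against 5.48 and 5.53 and fell by 0.71 (SE 0.099, limma adjusted p = 0.0419). It was named after its values were seen, to complete the count. Thus of the 3 isoforms Tgfb3 passed and Tgfb1 and Tgfb2 did not, a contrast between isoforms that was not itself tested. In these 4 genes the groups did not overlap, as in all 630 genes that passed and in 53.2% of all genes. Mmp2, a gelatinase abundant in fibroblasts, went the other way, from 5.75 and 5.63 to 7.89 and 7.20, a rise of 1.86 (SE 0.238, limma adjusted p = 0.0354). The fibroblast marker list was higher on the same arrays, with a median log2 difference of 0.96, and its part in the Mmp2 values was not tested.

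Of 17 ligands and antagonists of the activin, BMP and GDF branches, 2 rose, 0 fell and 15 did not pass (list median -0.05). This stands beside 1.79% of all genes that rose and 1.05% that fell. Bmp7, an epithelial BMP ligand gene, rose by 0.77 (SE 0.086, limma adjusted p = 0.0285), from 7.998 and 7.94 to 8.76 and 8.71. Fstl1, which encodes a secreted BMP-binding glycoprotein typical of mesenchymal cells, rose by 1.30 (SE 0.202, limma adjusted p = 0.0499), with Glut1-deficient arrays at 7.05 and 6.47. It was near the threshold and did not pass after a further quantile normalization. Bmp6 at 1.04 (limma adjusted p = 0.0631) and the BMP antagonist gene Grem1 at 1.44 (limma adjusted p = 0.0871) did not pass. Of these, Fstl1 and Grem1 are also fibroblast genes, beside a fibroblast marker median of 0.96. The part of fibroblasts in the Fstl1 and Grem1 values was not tested.

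None of the 12 other receptors and co-receptors passed (limma, 5 at unadjusted p under 0.05, beside 22.2% of all genes, list median 0.07). The co-receptor genes Tgfbr3, which encodes betaglycan, and Eng, which encodes endoglin, had the largest differences. Tgfbr3 read 5.11 and 4.88 against 6.40 and 5.91, a difference of 1.16 (limma adjusted p = 0.0533), and Eng 5.02 and 4.91 against 6.42 and 5.84, also 1.16 (limma adjusted p = 0.0602). The type I receptor genes Acvrl1 (-0.57, limma adjusted p = 0.0665) and Bmpr1b (-0.75, limma adjusted p = 0.104) lay lower. Both co-receptors are also expressed by stromal cells, and the fibroblast median of 0.96 stands beside them. The part of such cells in the Tgfbr3 and Eng values was not tested.

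None of 21 Smads and Smad regulators passed either (limma, 6 at unadjusted p under 0.05, beside 22.2% of all genes). All lay between -0.49 and 0.41. Skil, which encodes the Smad corepressor SnoN and is itself induced by TGF-beta, read 7.86 and 7.91 against 7.38 and 7.44, a difference of -0.47 (SE 0.086, limma adjusted p = 0.0643). Pmepa1, an induced gene that restrains receptor-activated Smads, read 10.07 and 10.13 against 9.53 and 9.69, a difference of -0.49 (SE 0.098, limma adjusted p = 0.0752). Smad3 was at -0.39 (limma adjusted p = 0.114) and the ubiquitin ligase gene Nedd4l at 0.41 (limma adjusted p = 0.122). Groups did not overlap for 14 of the 21 genes, beside 53.2% of all genes. They overlapped for Smad2, Smad4, Smad5, Smad6, Ski, Tgif2 and Trim33, as they did for Smad7. The overlapping genes of this list were named after their values were seen.

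Of the 28 tested genes known to be induced by TGF-beta, 1 fell, 0 rose and 27 did not pass. That is 3.57% passed, near the 2.84% of all genes, in the fit whose variance does not follow the intensity. When the variance followed the intensity, more of these genes passed in limma, in both directions, beside 12.0% of all genes. Among them were Pdgfb and Ccn1, which were lower, and Vim and Col1a1, which were higher. Of the differences, 13 were positive and 15 negative, beside 10731 and 11448 over all genes, with a list median of -0.08. The groups did not overlap for 21 of the 28, beside 53.2% of all genes, and 17 had an unadjusted p under 0.05, beside 22.2% of all genes. Acta2, the smooth muscle actin gene, fell by 0.71 (SE 0.095, limma adjusted p = 0.0390), from 9.40 and 9.35 to 8.59 and 8.73. Pdgfb, a growth factor gene, was at -0.71 (limma adjusted p = 0.0533), whereas the fibronectin receptor subunit Itga5 was at 0.56 (limma adjusted p = 0.0533) and the sphingosine kinase Sphk1 at 0.73 (limma adjusted p = 0.0539). Of the 6 genes repressed by TGF-beta in epithelial cells, Id3, a helix-loop-helix inhibitor that BMPs induce, fell by 0.90 (SE 0.121, limma adjusted p = 0.0390), from 6.68 and 6.42 to 5.60 and 5.69. Myc was at 0.39 (limma adjusted p = 0.0930), the cell cycle phosphatase gene Cdc25a at -0.72 (limma adjusted p = 0.0808) and the E-cadherin gene Cdh1 at -0.12 (limma adjusted p = 0.540). The list median was -0.03, with 0 rises and 5 genes not past the test (16.7% passed, beside 2.84% of all genes).

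**Figure D3:**
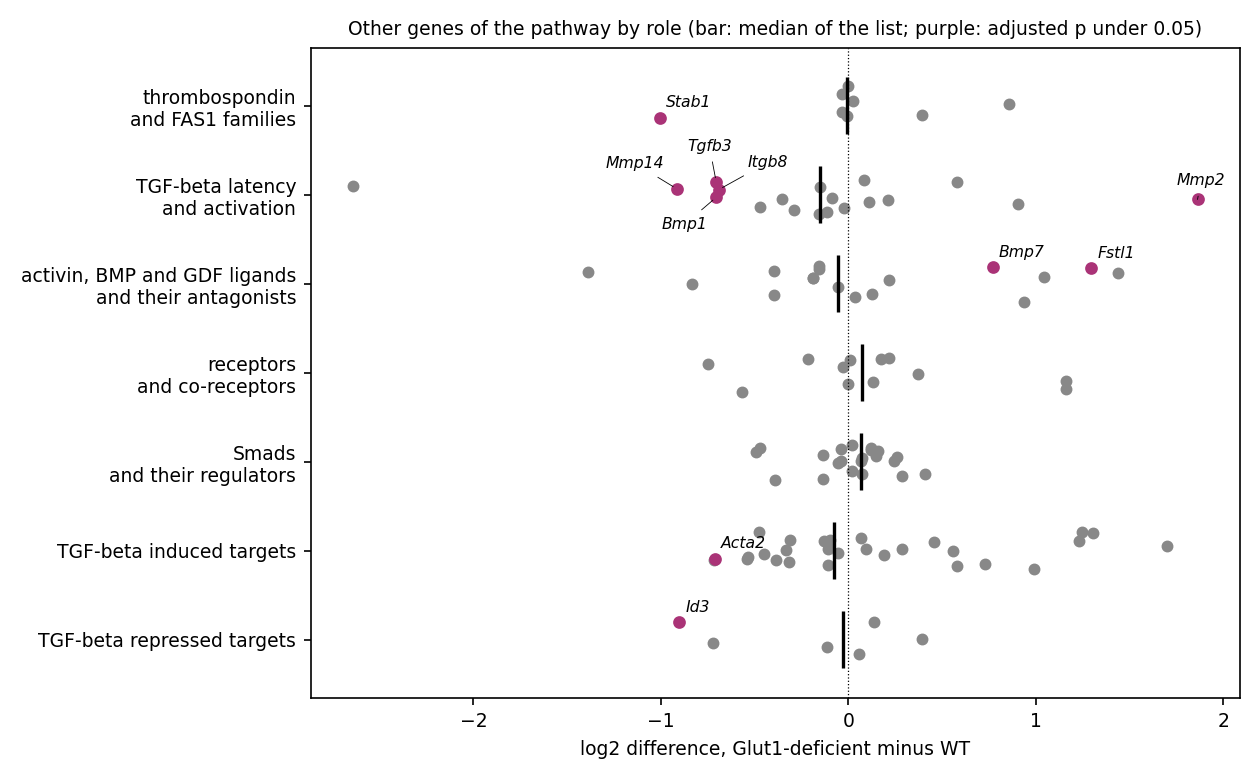
Log2 difference, Glut1-deficient minus WT, of the other tested pathway genes, 1 point per gene and 1 row per role list, with a black bar at each list's median. The 10 named purple points had a limma adjusted p under 0.05, and 4 of the 7 that fell belong to the latency and activation list.

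Markers of the cell types that such cultures can hold were read on the same arrays. Beside their counts, 1.79% of all genes rose, 1.05% fell and 22.2% had an unadjusted p under 0.05 (limma). Keratinocyte identity was present on all 4, with Krt14, the basal keratin, at 12.56 and 12.54 on the WT arrays and 12.15 and 12.21 on the Glut1-deficient arrays, and Perp at 11.87 and 11.86 against 12.18 and 12.14. None of 9 keratinocyte markers passed (limma, 6 at unadjusted p under 0.05), and their summed linear intensity was 15077 to 15435 on WT and 15034 to 15266 on Glut1-deficient arrays. Of 14 fibroblast markers, 1 rose, 0 fell and 12 had positive differences, while 5 lay below the median level of all genes. Pdgfra, a fibroblast receptor, read 5.97 and 5.84 against 8.64 and 7.47, a difference of 2.15 (limma adjusted p = 0.0608), and Fbln1 was at -0.61 (limma adjusted p = 0.0975). Relative to the WT mean, the fibroblast median was 1.16 on replicate 1 and 0.69 on replicate 2. Replicate 1 was also the farther array for 75.6% of the 630 genes that passed, so nothing is read from this order. Melanocyte markers rose in 5 of 8 cases, with the pigment genes Dct at 1.77 and Tyrp1 at 1.31 (limma adjusted p = 0.0145 and 0.0399) and a summed intensity of 364 to 458 on WT and 957 to 1043 on Glut1-deficient arrays. The melanocyte median departed from the WT mean by 0.96 on replicate 1 and by 1.16 on replicate 2. The part of any of these cell types in the values of the 9 genes was not tested.

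Markers of endothelial, immune and mural cells were also read, beside the same shares of all genes (1.79% rose, 1.05% fell, 22.2% at unadjusted p under 0.05 in limma). The summed intensity of the endothelial list was 135 to 142 on WT and 282 to 303 on Glut1-deficient arrays, and without Kdr it was 97 to 101 and 88 to 92. Of its 7 markers Kdr rose by 2.38 (limma adjusted p = 0.0136) while Pecam1 was at -0.35 (limma adjusted p = 0.220), and 5 of the 7 lay below the median level. Of 7 immune markers 0 passed (limma, 2 at unadjusted p under 0.05), with Cd68 at 0.04 and Csf1r at -0.29, and 6 lay below the median level. In the pericyte and smooth muscle list of 6, Acta2 fell, 5 did not pass, 3 lay below the median level, and Cnn1 was at -0.59 (limma adjusted p = 0.0630). Of these lists, the fibroblast list shares Col1a1 and Col1a2 with the TGF-beta induced targets, and the mural list shares Acta2.

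**Figure D4:**
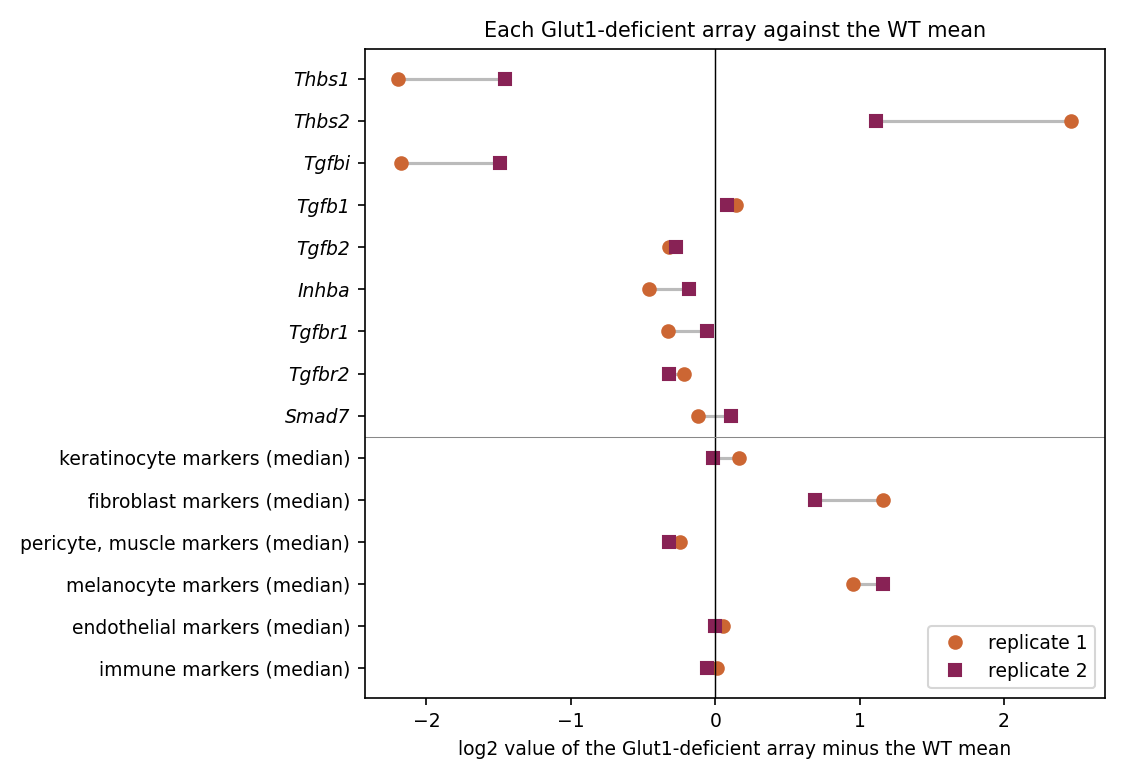
Log2 value of each Glut1-deficient array minus the WT mean (circle: replicate 1, square: replicate 2) for the 9 genes and for the median of each cell type marker list. Thbs1, Tgfbi and Thbs2 depart farther on replicate 1, as do the fibroblast markers (1.16 and 0.69), while the melanocyte markers are at 0.96 and 1.16 and the keratinocyte, endothelial and immune medians lie near 0.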

How the data were processed

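RNA of cultured mouse keratinocytes was hybridised to 4 MoGene 2.0 arrays, 2 per genotype. The deposited values are log2 intensities, 1 per transcript cluster. The submitters' processing notes name RMA and the Affymetrix Expression Console, without versions or settings, as the authors' tools for these log2 values. RMA sets arrays to a common distribution, so differences are relative to other genes. Of 41345 rows, 23521 have exactly 1 symbol in the platform annotation, 1814 several and 16010 none. Rows with 1 symbol entered, each gene represented by its brightest row by mean, with no filter on dim genes. Genotypes were compared with limma 3.58.1 (R 4.3.3; moderated test without trend, 2 residual degrees of freedom, prior 2.95), two-sided, with Benjamini-Hochberg adjustment over 22180 genes. An exact permutation of 2 against 2 arrays cannot go below p = 0.333. The fit was tested on simulated data. The 9 genes, the role lists and the marker lists were chosen with earlier results of these data known.

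Named were the 9 genes, Slc2a1, up to 4 genes per role list with the smallest limma p, up to 2 per marker list with the highest mean, and the 3 nearest genes to Thbs1 and to Tgfbi, leaving out predicted genes, olfactory receptors and small RNAs. The list symbols Ctgf and Cyr61 were matched as Ccn2 and Ccn1 through the reference gene table. Listed genes without a row of their own symbol, such as Krt5, were not analysed here. Alternatives comprised a variance trend on intensity, the same with robust estimation, 3 other scalings, a filter on dim genes, the mean of a gene's rows, all rows tested separately, each array left out and the replicate number as a block. Promoter sequences are RefSeq's (GRCm38.p6). Figures were drawn with matplotlib 3.10.9.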

Additional observations from a re-analysis of the deposited data

How the results depend on the processing

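Against 630 genes, 2 of the 9 genes and 10 other pathway genes past the threshold in limma, an intensity trend gave 2671, 4 and 47, the trend with robust estimation 2729, 4 and 46, and genes above the median level 2327, 3 and 38. With all 41345 rows tested separately the counts were 0, 0 and 0 (limma, 6694, 4 and 51 at unadjusted p under 0.05); the cause was not tested. Leaving out each array in turn (1 residual degree of freedom) gave 0 to 0, 0 to 0 and 0 to 0 (limma, 2948 to 4627, 3 to 4 and 39 to 54 at unadjusted p under 0.05). With the replicate number as a block they were 37, 0 and 0 (limma, 4335, 3 and 54 at unadjusted p under 0.05). Same-numbered arrays did not deviate together (r = -0.025 over genes), so the numbers are not taken to pair the arrays. Median centring, quantile normalization, cyclic loess and the mean of rows kept all 3 counts within 1.5 times. Smad7, which never passed, turned to 0.018 with median centring, to 0.011 with cyclic loess, to 0.18 without WT replicate 2 and to 0.11 without Glut1-deficient replicate 1 (range with 1 array left out -0.194 to 0.183). The other 8 genes kept their sign under every alternative that was run. None of the 9 has a second row, so no other row could be tried.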

Other observations

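Further pathway genes with large differences lay outside the rule for named genes and were chosen after their values were seen. Mmp9, the gelatinase B gene, read 10.18 and 10.14 on the WT arrays and 6.83 and 8.21 on the Glut1-deficient arrays, the lowest difference among the other pathway genes (-2.64, SE 0.446), and did not pass (limma adjusted p = 0.0565). Its sign was opposite to that of Mmp2, the other gelatinase gene.

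Inhbb, the activin beta B subunit gene, read 8.11 and 8.44 against 6.38 and 7.39 (-1.39, limma adjusted p = 0.109), and Fst, which encodes the activin-binding protein follistatin, 10.84 and 10.54 against 9.60 and 10.11 (-0.83, limma adjusted p = 0.106). Other genes of this branch lay nearer 0, with the inhibin subunit genes Inhbc at -0.15, Inha at -0.19 and Inhbe at 0.04, and the activin-binding Fstl3 at -0.05. Among the induced targets the highest difference was that of Vim, the intermediate filament gene of mesenchymal cells, at 8.38 and 8.07 against 10.40 and 9.44 (1.70, limma adjusted p = 0.0722). Ccn2, a matricellular target often read as a reporter of TGF-beta signalling, was at 9.82 and 9.85 against 9.79 and 10.01, a difference of 0.07 (limma adjusted p = 0.783). Its relative Ccn1 was at 10.90 and 10.69 against 10.31 and 10.38 (-0.45, limma adjusted p = 0.103).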
